A study of Mus musculus with 49 samples.

Results

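Mouse fibroblasts infected with OKM and SOX3 were compared with the same kind of cells infected with OKM and SOX2. Each condition was measured on 2 arrays, so 4 of the 49 arrays of the series enter the comparison, and they were chosen by their titles and not by any measured value. The OKM+SOX3 and OKM+SOX2 cells differed in the virus that carried SOX3 or SOX2. All other items in the labels were shared: cells labelled MEF (mouse embryonic fibroblast) from the skin of female animals of strain OGXICR at age D13.5, grown in serum medium, with factors delivered by a doxycycline-inducible lentiviral system. The protocol in the labels took the epidermis off the skin before the fibroblasts were dissociated. OKM is not spelled out in the labels and in this field stands for OCT4, KLF4 and MYC. The conditions OKM+SOX1 and OKM+GMNN, with 2 arrays each, were used beside them, where GMNN is the symbol of geminin. The time of harvest, the duration of induction, the species of the viral cDNAs and whether the 2 arrays of a condition came from separate infections were not given in the sources used here. The p-values therefore measure the spread between arrays, which may be technical.

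SOX1, SOX2 and SOX3 form the SoxB1 group of transcription factors, which share a DNA-binding HMG box and bind much the same short DNA motif. In reprogramming, SOX2 acts beside OCT4 on composite elements near pluripotency genes while the fibroblast program is shut down. In mouse fibroblasts, SOX1 and SOX3 have been used in place of SOX2 with varying yield, and geminin is a regulator of DNA replication licensing that also binds chromatin regulators in neural and embryonic stem cells.

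The values are intensities from a 1-colour array with RNA labelled with Cy5. On the 8 arrays of OKM with SOX3, SOX2, SOX1 or GMNN the median intensity lay between 370.3 and 371.3, and 11304 genes had a value on each of them. The number of arrays limits the precision. In fibroblast markers the cells matched their label: Col1a2 read 5450.3 and 7284 in OKM+SOX3 and 7897 and 7569.6 in OKM+SOX2, Dcn 38452 and 34642 in OKM+SOX3 and 40090 and 33399 in OKM+SOX2, and Vim 40090 and 41266 in OKM+SOX3 and 59547 and 54335 in OKM+SOX2. The endothelial marker Pecam1 was near the bottom of the scale, at 20.6 and 14.4 in OKM+SOX3 and 9.9 and 12.5 in OKM+SOX2. Other genes of the endothelial list were brighter. Its 10 measured members summed to 14863 and 16512 in OKM+SOX3 and 17749 and 15773 in OKM+SOX2. Keratinocyte and macrophage transcripts were present too, as given below. The arrays measured the RNA of many cells together, so fewer cells of a type and less RNA per cell cannot be told apart.

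OKM+SOX2 array 1 stood apart from the other 7 arrays. On it, 261 of the 11304 genes (2.31%) were over 4-fold dimmer than on any other array of the 8, against 0 or 1 such genes on each of the others. Those genes had a median intensity of 95.4 on that array and of 2170 to 2520 on the other 7. Across genes, the correlation of log2 values of OKM+SOX2 array 1 with the other arrays was 0.891 to 0.906, whereas other pairs of arrays reached up to 0.991. The genes in question were dim on 1 array of the pair only: Hadh, a mitochondrial enzyme of fatty acid oxidation, read 18260 and 19364 in OKM+SOX3 and 189 and 18219 in OKM+SOX2. The reason was not tested. Counts below are therefore given with all values and with lone-array values left out, that is, without any value over 4-fold outside the range of the other 7 arrays. Differences of single genes and their 49-array p-values use all values unless stated, and the result without OKM+SOX2 array 1 is added for many of them.

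**Figure D1:**
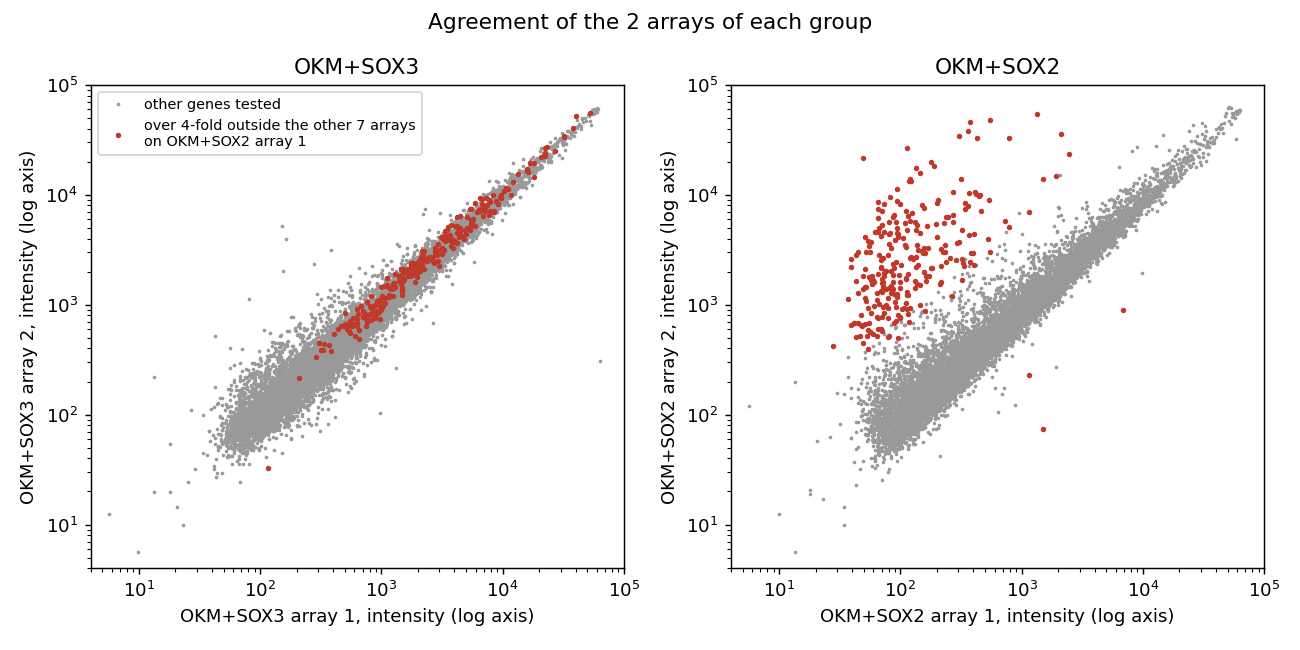
Intensity of 11304 genes on array 1 (x axis) and array 2 (y axis) of OKM+SOX3 (left) and OKM+SOX2 (right), on log axes. Red points are genes over 4-fold outside the range of the other 7 arrays on OKM+SOX2 array 1; they lie on the diagonal in OKM+SOX3 and off it in OKM+SOX2.

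The spread between the 2 arrays of a condition was larger here than in most of the series. The median SD of log2 intensity was 0.146 in OKM+SOX3 and 0.229 in OKM+SOX2, beside a median of 0.11 over the 23 groups. The main test estimated 1 spread per gene over all 49 arrays, and a second fit took it from the 8 arrays alone. Both are quoted below, as the 49-array and the 8-array adjusted p; the 8-array values are those with lone-array values left out. All differences are log2(intensity + 32) in OKM+SOX3 minus OKM+SOX2 unless another pair is named, and the threshold was an adjusted p of 0.05.

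With all values, 687 of 11304 genes (6.08%) passed in the 49-array fit, of which 377 (3.34%) were higher and 310 (2.74%) lower in OKM+SOX3. A difference of at least 2-fold was reached by 233 of the higher genes (2.06%) and 47 of the lower genes (0.416%). Of the 377 rises, 143 were genes dim on OKM+SOX2 array 1 alone. With lone-array values left out, 475 genes (4.2%) passed, 207 higher (1.83%) and 268 lower (2.37%), and 466 of them had also passed with all values. The 8-array fit without those values passed 94 genes (0.832%), 58 higher (0.513%) and 36 lower (0.318%), and 79 of these also passed in the 49-array fit without them. With all values kept, the 8-array fit passed 27 genes (0.239%). Without OKM+SOX2 array 1, 109 genes (0.964%) passed, 62 higher (0.548%) and 47 lower (0.416%). The median difference over all genes was -0.05.

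A core of 46 genes, 26 higher and 20 lower, passed with all values and also in each of the 4 fits that left out 1 of the 4 arrays. Of these, 29 passed in the 8-array fit with lone-array values left out too, 22 of them higher and 7 lower in OKM+SOX3. With all values kept, the 8-array fit passed only 27 of all genes, so not all of the 29 passed there. The lower ones include the transcription factor genes Sox21 and Msc.

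**Figure D2:**
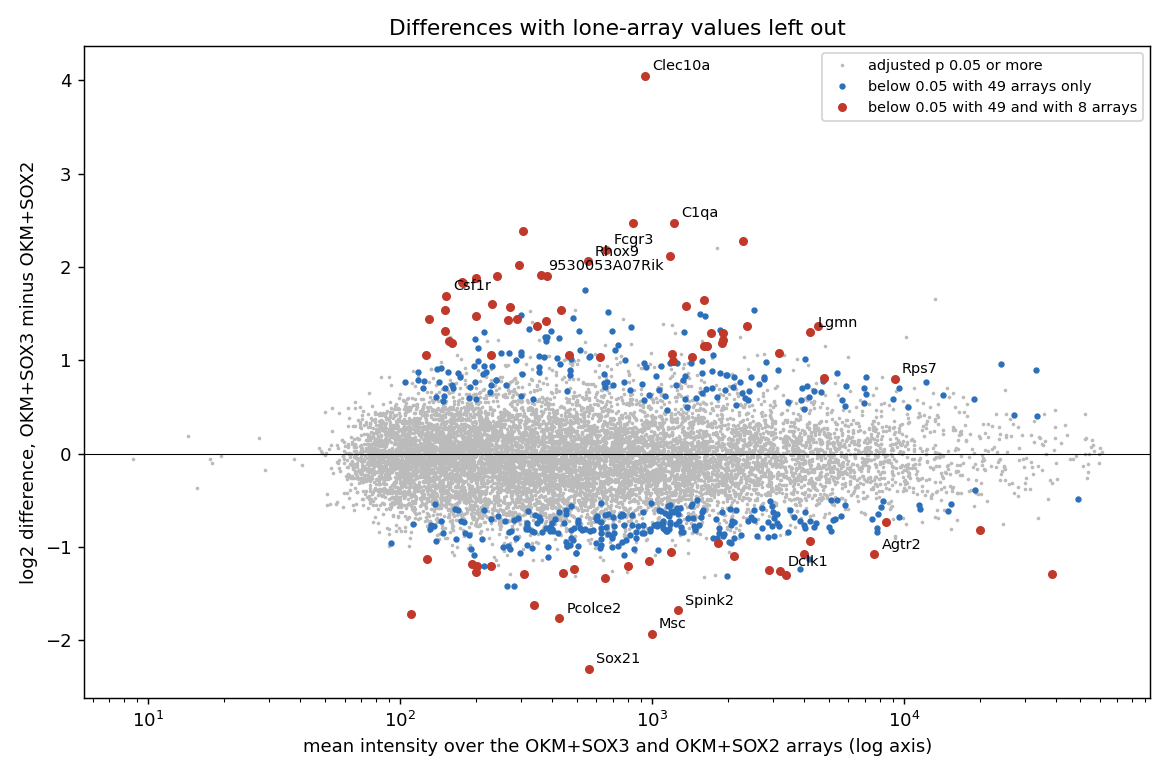
Log2 difference, OKM+SOX3 minus OKM+SOX2 (y axis), against the mean intensity over the 4 arrays on a log axis (x axis), with lone-array values left out; each point is a gene. The 79 red genes passed with 49 and with 8 arrays, from Clec10a at 4.05 to Sox21 at -2.30.

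Macrophage and myeloid genes were higher in OKM+SOX3. Of 22 listed genes, 12 were measured, and in the 49-array fit 7 rose and 0 fell with all values, beside 3.34% of all genes that rose. The rises were 6 with lone-array values left out and 8 in the 8-array fit, beside 1.83% and 0.513% of all genes that rose. The list's median difference was 1.67, against -0.05 for all genes tested. Without OKM+SOX2 array 1 it was 1.88, against 0 for all genes. This list was drawn up with earlier results of these data known. Summed over the 12 genes, the intensity was 13902 and 12818 in OKM+SOX3 and 3102 and 3255 in OKM+SOX2, with no overlap between the groups.

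Csf1r, the receptor for the growth factor on which macrophages depend, read 266 and 231 in OKM+SOX3 and 67.3 and 43.6 in OKM+SOX2. Both OKM+SOX2 arrays lay near the dim end of the scale, and the difference was 1.69 ± 0.159 (SE), with a 49-array adjusted p of 8.74e-08 and an 8-array adjusted p of 0.0025. C1qa and C1qc encode chains of complement C1q, which tissue macrophages secrete. C1qa read 2340.3 and 1823 in OKM+SOX3, against 371 and 322 in OKM+SOX2, and C1qc read 1659 and 1214 in OKM+SOX3, against 196 and 271 in OKM+SOX2. Both rose by 2.47, with 49-array adjusted p-values of 0.0072 for C1qa and 0.00816 for C1qc and 8-array values of 2.34e-05 and 0.000136. Without OKM+SOX2 array 1 their 49-array adjusted p-values were 0.0638 and 0.127.

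The Fc receptor genes moved with them. Fcgr3, a receptor for immunoglobulin G, read 1188 and 1006 in OKM+SOX3 and 219 and 212 in OKM+SOX2, a difference of 2.19 ± 0.408 (49-array adjusted p = 0.00197, 8-array 0.000136). Fcer1g, its signalling gamma chain, read 2036 and 1832 in OKM+SOX3 and 433 and 405 in OKM+SOX2, a difference of 2.12 ± 0.443 (49-array adjusted p = 0.00456, 8-array 0.000136). Laptm5, a lysosomal membrane protein of blood cells, read 2177 and 2691 in OKM+SOX3 and 896 and 634 in OKM+SOX2 and differed by 1.64 ± 0.202 (49-array adjusted p = 8.5e-06, 8-array 0.00137). In each of these genes both OKM+SOX3 arrays lay above both OKM+SOX2 arrays, as they do in 15.9% of all genes. The genes were named for their called rises, so this is no further support.

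Cd68, a lysosomal glycoprotein that defines macrophages in many assays, read 2397 and 2489 in OKM+SOX3 and 43.0 and 504 in OKM+SOX2. The 2 OKM+SOX2 arrays disagreed, and the lower of them is OKM+SOX2 array 1. With that value left out the difference was 2.21, with a 49-array adjusted p of 0.0728 and an 8-array adjusted p of 0.000344. Mrc1, the mannose receptor, read 534 and 466 in OKM+SOX3 and 178 and 129 in OKM+SOX2, with a 49-array adjusted p of 0.0553 and an 8-array adjusted p of 0.0047. Cd14, Itgam, Ptprc and Mpeg1 passed in neither fit. Their differences were 0.62 for Cd14, 0.69 for Itgam, 0.89 for Ptprc and 0.06 for Mpeg1. Mpeg1, a pore-forming protein of macrophages, was near the dim end of the scale in both groups, at 45.2 and 52.2 in OKM+SOX3 and 58.5 and 33.8 in OKM+SOX2. The defining markers Adgre1 and Tyrobp were not analysed here.

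The largest called difference with lone-array values left out was in Clec10a, a C-type lectin of macrophages and dendritic cells. It read 1761 and 1822 in OKM+SOX3 and 80.2 and 76.1 in OKM+SOX2. Both OKM+SOX2 arrays lay close to the dim end of the scale. The difference was 4.05 ± 0.588, with a 49-array adjusted p of 0.00102, an 8-array adjusted p of 4.06e-06 and, without OKM+SOX2 array 1, a 49-array adjusted p of 0.0149. Further leukocyte genes outside the list, named here after their values were seen, were in the core of 29. Adam8, a membrane metalloprotease of leukocytes, read 3266 and 4358 in OKM+SOX3 and 882 and 645 in OKM+SOX2, a difference of 2.27. Nckap1l, the blood-cell subunit of the actin-regulating WAVE complex, read 693 and 547 in OKM+SOX3 and 172 and 116 in OKM+SOX2, a difference of 1.90. Selplg, the P-selectin ligand of leukocytes, differed by 1.83, Hk3, a hexokinase of myeloid cells, by 1.44, and Coro1a, an actin-binding protein of leukocytes, by 1.42. Their 8-array adjusted p-values ran from 0.000136 for Adam8 to 0.0114 for Hk3.

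Marco, a scavenger receptor of macrophages, and Pf4, a chemokine of platelets and some macrophages, were named by the size rule. Marco read 594 and 478 in OKM+SOX3 and 57.3 and 98.4 in OKM+SOX2, a difference of 2.39 ± 0.520 (49-array adjusted p = 0.0215, 8-array 0.000136). Pf4 read 452 and 530.0 in OKM+SOX3 and 135 and 66.8 in OKM+SOX2, a difference of 2.02 ± 0.566 (49-array adjusted p = 0.0443, 8-array 0.00154). Without OKM+SOX2 array 1 neither passed, with 49-array adjusted p-values of 0.211 for Marco and 0.137 for Pf4.

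OKM+SOX2 was the lowest of the 4 conditions for the macrophage list. The summed intensity of 13902 and 12818 in OKM+SOX3 stood beside 11045 and 11452 in OKM+SOX1 and 22715 and 22587 in OKM+GMNN. Against OKM+SOX1, 0 of the 12 genes rose and 1 fell in OKM+SOX3, beside 5.29% of all genes that fell. Against OKM+GMNN, 0 rose and 3 fell, beside 6.4% of all genes that fell. The gene that fell in both was Csf1r, at 423 and 506 in OKM+SOX1 and 838 and 914 in OKM+GMNN; it differed by -0.82 from OKM+SOX1 (49-array adjusted p = 0.00141, 8-array 0.0702) and by -1.70 from OKM+GMNN (49-array 9.34e-09, 8-array 0.00112). These comparisons share the OKM+SOX3 arrays with the one above. The part of macrophage RNA in the other differences was not tested.

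**Figure D3:**
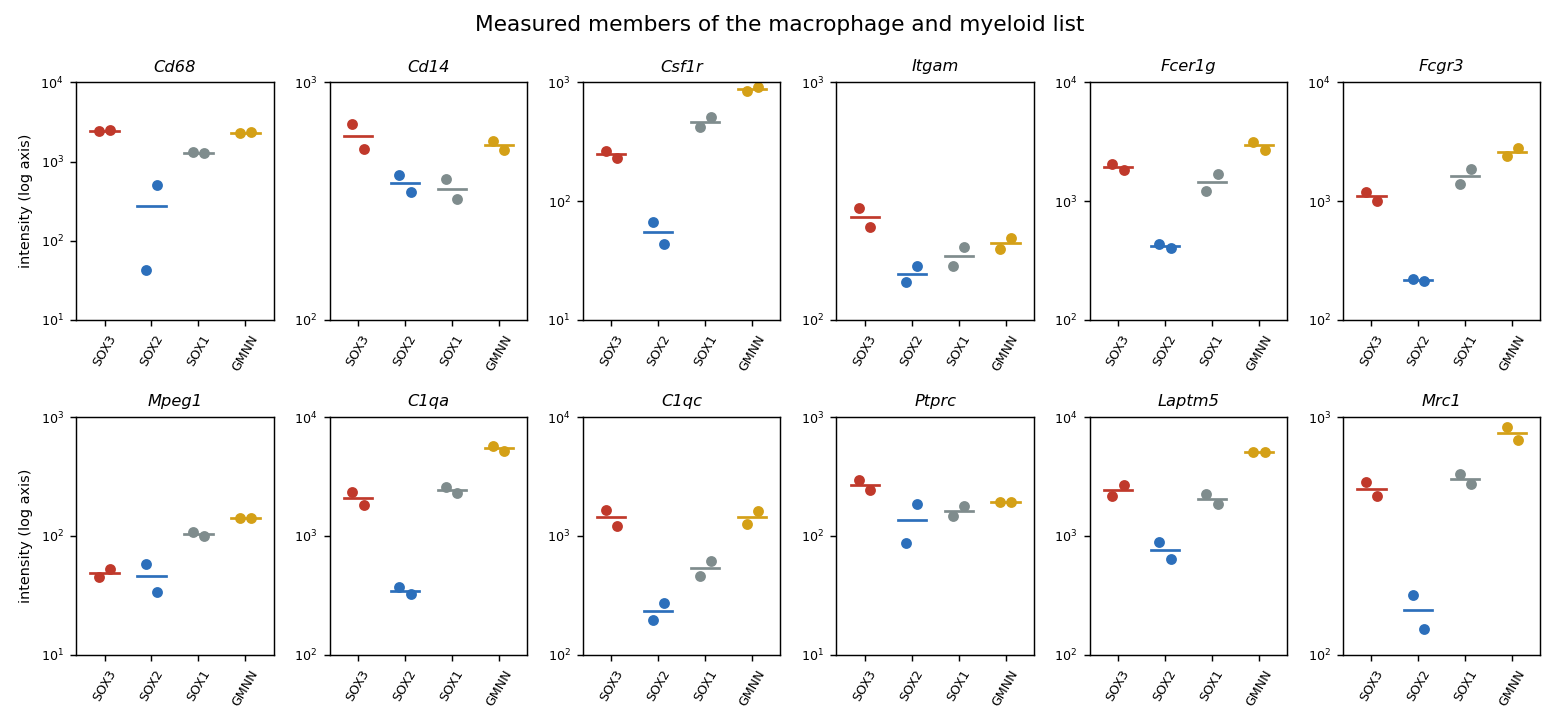
Intensity (log axis, scaled for each gene) of the 12 measured members of the macrophage and myeloid list in OKM+SOX3, OKM+SOX2, OKM+SOX1 and OKM+GMNN. Points are arrays and lines are means of 2; both OKM+SOX3 arrays lie above both OKM+SOX2 arrays for 11 genes and not for Mpeg1, as they do for 1797 of all 11304 genes (15.9%).

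Whether arrays of other conditions were normalized together with these 8 was not stated, so levels across them are given with no test. They are on a quantile-normalized scale built from the 9896 probes measured on all 49. On that scale Csf1r averaged 278.1 ± 27.8 in OKM+SOX3 and 51.85 ± 20.5 in OKM+SOX2 (SD, n = 2 each), beside 158.5 ± 20.1 in OKM with empty vector (n = 3) and 11630 ± 1900 in the fibroblasts titled MEF2 with empty vector (n = 2). C1qa averaged 2662 ± 467 in OKM+SOX3 and 397.8 ± 46.0 in OKM+SOX2, beside 42160 ± 12000 in MEF2 with empty vector. In OKM with empty vector C1qa ran from 68.99 to 1454 over 3 arrays, so that OKM+SOX2 lay within that spread. For both genes MEF2 with empty vector was the highest of these groups. Laptm5 averaged 3096 ± 456 in OKM+SOX3, 936.6 ± 228 in OKM+SOX2 and 16710 ± 2630 in MEF2 with empty vector. In embryonic stem cell line R1 (n = 2) Laptm5 averaged 7107 ± 783, so its signal is not particular to blood cells. Csf1r and C1qa averaged 119.5 and 125.7 there.

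The named higher genes included Crct1, Evpl and Sprr2i. Crct1, a gene of the epidermal differentiation complex, read 6084 and 6916 in OKM+SOX3 and 2014 and 3088 in OKM+SOX2, a difference of 1.37 ± 0.186 (49-array adjusted p = 3.85e-05, 8-array 0.00764). Evpl, the envelope protein envoplakin, read 893 and 797 in OKM+SOX3 and 441 and 354 in OKM+SOX2, a difference of 1.03 ± 0.175 (49-array adjusted p = 0.00222, 8-array 0.0422). Sprr2i, a small proline-rich envelope precursor, read 788 and 532 in OKM+SOX3 and 155 and 261 in OKM+SOX2, a difference of 1.54, and did not pass without OKM+SOX2 array 1 (49-array adjusted p = 0.158). The OKM+SOX3 arrays lay above the OKM+SOX2 arrays in all of them, as in 15.9% of all genes. The rule for the largest rises required this, so it is no further support. On the scale common to all arrays, with no test, Crct1 averaged 7891 ± 719 in OKM+SOX3 and 3218 ± 939 in OKM+SOX2, and OKM with empty vector was higher still, at 13030 ± 1590. Fgfbp1, which releases fibroblast growth factors from the matrix, differed by 1.08 (49-array adjusted p = 0.000191, 8-array 0.044). The core of 29 also held Rassf4, a protein with a Ras-association domain, with a difference of 1.57, and the genes listed as 1700086L19Rik and 4933402E13Rik, with differences of 1.44 and 1.06.

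The keratinocyte list itself did not show a called change. Of its 22 genes 19 were measured, and 0 rose and 0 fell in the 49-array fit, with all values, with lone-array values left out and in the 8-array fit. Its median difference was 0.53 with all values and 0.36 with lone-array values left out, and its summed intensity was 70020 and 66616 in OKM+SOX3 against 49710 and 49275 in OKM+SOX2. Krt14, a keratin of basal keratinocytes, read 21241 and 20607 in OKM+SOX3 and 14844 and 14098 in OKM+SOX2, a difference of 0.53 with a 49-array adjusted p of 0.252 and an 8-array adjusted p of 0.0864. Of 17 measured epithelial genes 1 rose, beside 3.34% of all genes. It was Dsp, the desmosomal plakin, at 2669 and 2594 in OKM+SOX3 and 1189 and 1088 in OKM+SOX2, a difference of 1.19 ± 0.275 (49-array adjusted p = 0.0119, 8-array 0.0116). Without OKM+SOX2 array 1 its 49-array adjusted p was 0.0891.

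Of the 22 higher genes in the core of 29, 6 were also called higher in OKM+SOX3 against both OKM+SOX1 and OKM+GMNN in the 49-array fit: Rhox9, Lgmn, 9530053A07Rik, Rps7, Arrdc4 and Ndrg1. The 3 comparisons share the OKM+SOX3 arrays, by whose high values the 22 genes were chosen, so these counts are no separate support. Each comparison is given with its own values. In 1 of the 22 genes OKM+SOX3 was called lower than OKM+SOX1, and in 7 it was called lower than OKM+GMNN. Of all genes, 3.25% were called higher and 5.29% lower against OKM+SOX1, and 5.41% higher and 6.4% lower against OKM+GMNN.

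Rhox9, an X-linked homeobox gene of the reproductive cluster that is active in germ cells and gonads, read 952 and 875 in OKM+SOX3 and 219 and 171 in OKM+SOX2. The OKM+SOX1 arrays read 131 and 183 and the OKM+GMNN arrays 145 and 145, so that the OKM+SOX3 arrays stood alone above the other 6. The difference was 2.06 ± 0.205 from OKM+SOX2 (49-array adjusted p = 1.74e-07, 8-array 0.0005), 2.33 ± 0.205 from OKM+SOX1 (1.74e-08 and 0.000451) and 2.42 ± 0.205 from OKM+GMNN (1.82e-09 and 6.3e-05). On the scale common to all arrays, with no test, Rhox9 averaged 1128 ± 66.6 in OKM+SOX3 and 203.9 ± 44.3 in OKM+SOX2, beside 242.2 ± 85.2 in OKM with empty vector and 1300 ± 14.8 in the embryonic stem cell line R1.

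Lgmn encodes legumain, a lysosomal cysteine protease. It read 5920.4 and 6154 in OKM+SOX3 and 2674 and 2203 in OKM+SOX2, with 2501 and 1859 in OKM+SOX1 and 2632 and 2710.1 in OKM+GMNN. The difference from OKM+SOX2 was 1.30 ± 0.135 (49-array adjusted p = 3.21e-07, 8-array 0.00427), and it was 1.47 from OKM+SOX1 (8-array adjusted p = 0.00209) and 1.17 from OKM+GMNN (8-array adjusted p = 0.00373). On the scale common to all arrays, with no test, Lgmn averaged 7358 ± 164 in OKM+SOX3 and 3088 ± 417 in OKM+SOX2. OKM with empty vector, at 9063 ± 403, and MEF2 with empty vector, at 10150 ± 1210, were above OKM+SOX3. The gene listed as 9530053A07Rik read 693 and 489 in OKM+SOX3 and 141 and 122 in OKM+SOX2, with 115 and 117 in OKM+SOX1 and 18.0 and 50.3 in OKM+GMNN. Its difference from OKM+SOX2 was 1.91 ± 0.241 (49-array adjusted p = 0.00197, 8-array 0.00223).

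The other 3 had 2 probes each that gave different sizes. For Rps7, a protein of the small ribosomal subunit, the brighter probe read 11238 and 12058 in OKM+SOX3 and 6886 and 6442 in OKM+SOX2, a difference of 0.80 ± 0.106 (49-array adjusted p = 2.38e-05, 8-array 0.0351), and the dimmer probe differed by -0.52. For Arrdc4, an arrestin-domain protein, the brighter probe differed by 0.99 ± 0.155 (49-array adjusted p = 0.00027, 8-array 0.0339) and the dimmer by -0.28. For Ndrg1, a gene induced by hypoxia and differentiation, the values were 1.15 ± 0.174 (49-array adjusted p = 0.000201, 8-array 0.0177) and 0.14. The direction of Rps7 and Arrdc4 thus depends on the probe.

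Nnat, the imprinted gene neuronatin, read 395 and 482 in OKM+SOX3 and 176 and 112 in OKM+SOX2. Both OKM+SOX3 arrays were above the other 6 arrays, with 78.4 and 114 in OKM+SOX1 and 49.5 and 43.0 in OKM+GMNN. The difference was 1.44 ± 0.323 from OKM+SOX2 (49-array adjusted p = 0.0133, 8-array 0.0122) and 1.89 from OKM+SOX1 (49-array 0.00141, 8-array 0.00209). It was the 1 imprinted gene of 18 measured that rose, while 2 fell: Ndn (-0.67) and Igf2r (-0.60), neither of which passed in the 8-array fit (0.0874 and 0.149). Of all genes, 3.34% rose and 2.74% fell. Igf1r, the receptor for insulin-like growth factors, read 1988 and 2215 in OKM+SOX3 and 146 and 994 in OKM+SOX2, where the low value is that of OKM+SOX2 array 1. With that value left out it differed by 1.05 (49-array adjusted p = 0.00235, 8-array 0.071).

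**Figure D4:**
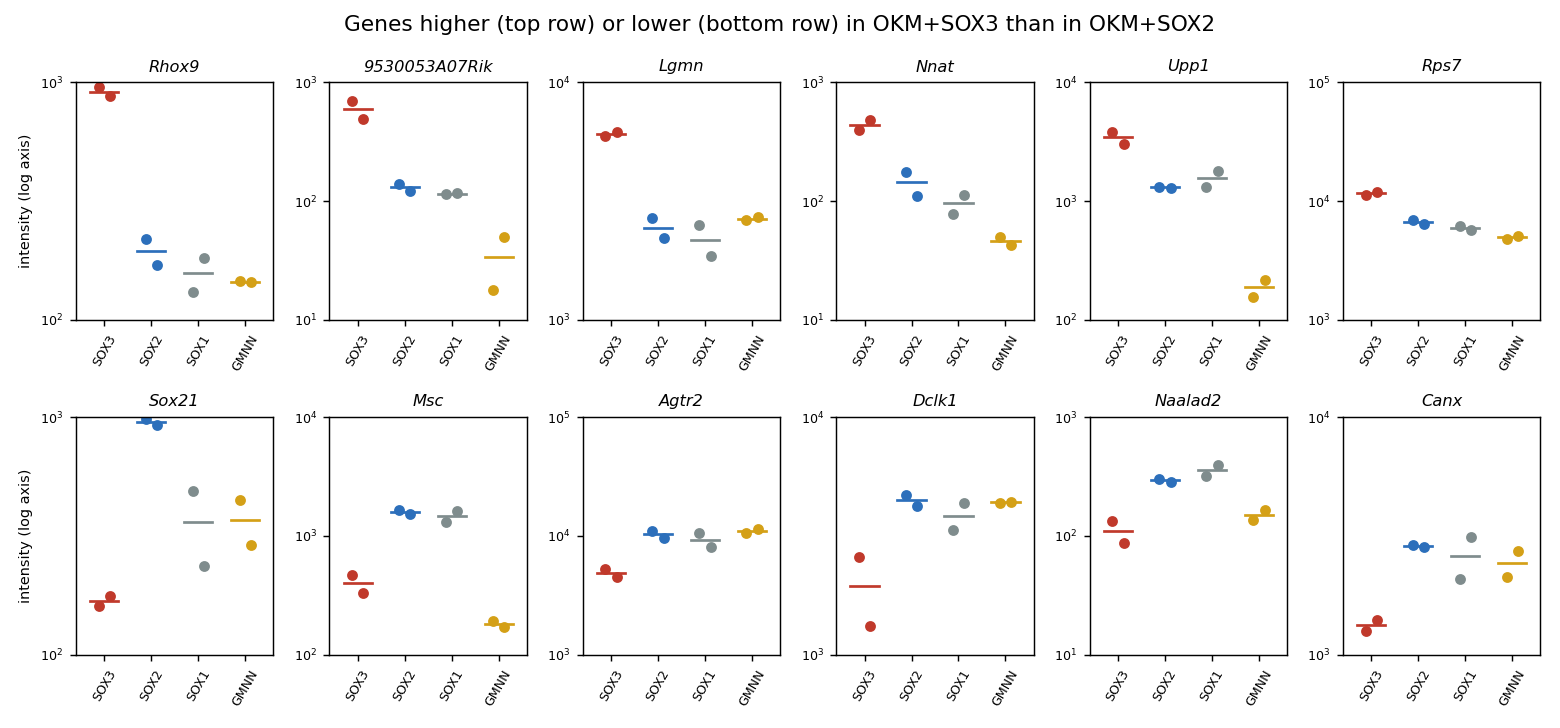
Intensity (log axis, scaled for each gene) of 6 genes higher and 6 genes lower in OKM+SOX3 than in OKM+SOX2; points are arrays and lines are means of 2. Of these 4 conditions, Rhox9, Lgmn and Nnat are highest in OKM+SOX3 and Sox21 in OKM+SOX2.

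Sox21 was the gene with the largest called fall. It encodes a SoxB2 repressor that is a target of SOX2 in mouse embryonic stem cells. It read 159.6 and 176 in OKM+SOX3 and 977 and 930.1 in OKM+SOX2, a difference of -2.30 ± 0.267 (49-array adjusted p = 3.09e-06, 8-array 0.00137), and without OKM+SOX2 array 1 it was -2.27 (49-array adjusted p = 0.00028). The OKM+SOX1 arrays read 489.8 and 235 and the OKM+GMNN arrays 449 and 290.4, between the other conditions. OKM+SOX3 differed from OKM+SOX1 by -0.90 (49-array adjusted p = 0.0316, 8-array 0.0984) and from OKM+GMNN by -0.98 (49-array 0.0156, 8-array 0.0534). On the scale common to all arrays, with no test, it averaged 175.9 ± 14.1 in OKM+SOX3 and 1177 ± 40.2 in OKM+SOX2, beside 204.1 ± 43.5 in OKM with empty vector and 694.6 ± 166 in embryonic stem cell line R1.

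Sox21 is the 1 gene of 11 measured Sox genes that was called, beside 6.08% of all genes. Sox3 itself read 161 and 142 in OKM+SOX3 and 185 and 123 in OKM+SOX2, and the groups overlapped (difference 0.00 ± 0.191, 49-array adjusted p = 0.999). Whether its probe matches the viral cDNA is not given, so it does not check the labels. Sox1 differed by -0.25 (49-array adjusted p = 0.849) and Klf4 by -0.13 (0.788). Sox2, Pou5f1, Myc and Gmnn were not analysed here.

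Msc encodes musculin, a basic helix-loop-helix repressor of muscle differentiation. It read 468 and 328 in OKM+SOX3 and 1646 and 1526 in OKM+SOX2, a difference of -1.93 ± 0.189 (49-array adjusted p = 8.5e-06, 8-array 0.000686). OKM+SOX1 read 1306 and 1631, as bright as OKM+SOX2, and OKM+GMNN read 191 and 172, dimmer than OKM+SOX3. OKM+SOX3 differed from OKM+SOX1 by -1.81 (8-array adjusted p = 0.00205) and from OKM+GMNN by 0.99 (8-array adjusted p = 0.0198).

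The other 5 lower genes of the core of 29 were Agtr2, Dclk1, Canx, Naalad2 and Il1rn. Agtr2, the angiotensin II receptor type that is prominent in fetal mesenchyme, read 5274 and 4505 in OKM+SOX3 and 11008 and 9643 in OKM+SOX2, with 10547 and 8086 in OKM+SOX1 and 10484 and 11335 in OKM+GMNN. The OKM+SOX3 arrays lay below the other 6, and the difference from OKM+SOX2 was -1.07 ± 0.174 (49-array adjusted p = 0.000402, 8-array 0.00944). Dclk1, a microtubule-associated kinase, read 2576 and 1321 in OKM+SOX3 and 4714 and 4242 in OKM+SOX2, a difference of -1.26 ± 0.199 (8-array adjusted p = 0.0339); its dimmer probes differed by -0.29 and -0.12. Canx, the endoplasmic reticulum chaperone calnexin, differed by -1.09 ± 0.210 (8-array adjusted p = 0.0339), and by -0.32 at its other probe. Agtr2, Canx, Dclk1 and Sox21 were called lower in OKM+SOX3 against OKM+SOX1 and OKM+GMNN as well in the 49-array fit. Of all genes, 5.29% and 6.4% were called lower in these comparisons. They share the OKM+SOX3 arrays, by whose low values the genes were chosen.

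Naalad2, a membrane peptidase, read 134 and 88.0 in OKM+SOX3 and 302 and 284 in OKM+SOX2, a difference of -1.20 (8-array adjusted p = 0.0358). Il1rn, the interleukin-1 receptor antagonist, read 93.0 and 116 in OKM+SOX3 and 319 and 241 in OKM+SOX2, a difference of -1.19 (8-array adjusted p = 0.0339). For these genes OKM+GMNN was lower than OKM+SOX2 too, at 136 and 165 for Naalad2 and 115 and 84.5 for Il1rn.

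Of the 15 largest falls with lone-array values left out, 14 passed in the 8-array fit and 3, namely Sox21, Msc and Dclk1, passed in the 49-array fit without OKM+SOX2 array 1. Pcolce2, an enhancer of procollagen processing, read 171 and 179 in OKM+SOX3 and 796 and 565 in OKM+SOX2, a difference of -1.76 ± 0.382 (49-array adjusted p = 0.00591, 8-array 0.00154). Spink2, a serine protease inhibitor, read 614 and 557 in OKM+SOX3 and 2121 and 1770.3 in OKM+SOX2, a difference of -1.68 ± 0.349 (49-array adjusted p = 0.00556, 8-array 0.000686). Dck, the kinase that starts deoxynucleoside salvage, was bright in all arrays and read 21399 and 23472 in OKM+SOX3 and 54335 and 55030 in OKM+SOX2, a difference of -1.29 ± 0.379 (49-array adjusted p = 0.0384, 8-array 0.000238). The others were Kctd12 (-1.62), the matrix gene Abi3bp (-1.33), Lrrc38 (-1.31), Itm2a (-1.29), the mesenchymal homeobox gene Meox2 (-1.28), Adam23 (-1.24), Armcx1 (-1.24), the RNA-binding protein gene Igf2bp2 (-1.21) and Riok1 (-1.15), of which Lrrc38 did not pass in the 8-array fit (0.0622). Abi3bp differed by -0.28 at its other probe.

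The promoters of the named genes were searched for letters that SoxB1 and OCT4 proteins are known to bind, AACAAAG and AACAATG for Sox and ATGCAAAT for the octamer, on both strands of the 250 bases before the start (RefSeq, GRCm38.p6). Over all 32851 promoters, AACAAAG stood in 5.03%, AACAATG in 3.29%, ATGCAAAT in 1.6% and any of them in 9.56%. For the 15 largest falls, 13 genes had 16 promoters in the table, and 3 of these held a match. For the 15 largest rises with lone-array values left out, 11 genes had 13 promoters and 1, of Sprr2i, held a match. The promoter of Sox21, which has no match, is shown beside those of Armcx1 and Kctd12, which have 1 each, because Sox21 fell most and the other 2 carry the Sox and octamer letters. Capitals mark the matched letters.
Sox21, chr14:118237031-118237280, minus strand: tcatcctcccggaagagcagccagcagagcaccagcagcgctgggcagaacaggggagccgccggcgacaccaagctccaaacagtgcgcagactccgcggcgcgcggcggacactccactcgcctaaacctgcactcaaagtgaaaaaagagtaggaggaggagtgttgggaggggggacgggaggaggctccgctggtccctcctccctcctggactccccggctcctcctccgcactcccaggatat
Armcx1, chrX:134717688-134717937, plus strand: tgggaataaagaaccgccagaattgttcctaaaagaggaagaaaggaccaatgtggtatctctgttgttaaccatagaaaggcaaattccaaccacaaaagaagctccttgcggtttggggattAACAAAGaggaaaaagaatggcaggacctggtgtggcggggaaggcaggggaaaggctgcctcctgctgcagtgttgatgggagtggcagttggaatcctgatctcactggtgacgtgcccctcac
Kctd12, chr14:102982638-102982887, minus strand: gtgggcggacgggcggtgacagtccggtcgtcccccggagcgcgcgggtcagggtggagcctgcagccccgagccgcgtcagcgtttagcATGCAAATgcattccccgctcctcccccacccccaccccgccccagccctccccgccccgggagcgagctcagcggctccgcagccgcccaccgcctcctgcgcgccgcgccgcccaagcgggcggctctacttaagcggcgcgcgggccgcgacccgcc
In Armcx1 the match starts 126 bases before the gene's start and in Kctd12 160 bases before it.

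Among pluripotency genes, 13 of 25 were measured, and 0 rose and 3 fell in OKM+SOX3 in the 49-array fit, beside 2.74% of all genes that fell. The list median was -0.54, and it was -0.28 without OKM+SOX2 array 1. In the 8-array fit 1 of the 3 passed, beside 0.318% of all genes that fell. Esrrb, an orphan nuclear receptor of naive pluripotency, read 101 and 106 in OKM+SOX3 and 344 and 249.6 in OKM+SOX2, a difference of -1.26 ± 0.291 (49-array adjusted p = 0.0106, 8-array 0.0498, without OKM+SOX2 array 1 0.205). Eras, an embryonic stem cell Ras, read 82.8 and 84.4 in OKM+SOX3 and 227 and 157 in OKM+SOX2, a difference of -0.94, and Nr0b1, a nuclear receptor of the pluripotency network, differed by -0.67. All 3 were dim to moderate, and in each OKM+SOX2 array 1 was the brighter of its pair. On the scale common to all arrays, with no test, Eras averaged 3109 ± 192 in embryonic stem cell line R1 and 118.5 ± 17.4 in uninfected fibroblasts. Nr0b1 went the other way, at 581.8 ± 45.8 in R1 and 2431 ± 598 in uninfected fibroblasts, so its signal here does not mark pluripotent cells. Fgf4 and Zfp42, which did not pass, differed by -0.88 and -0.54. The summed intensity of the 13 genes was 6434 and 5750 in OKM+SOX3 and 8922 and 7444 in OKM+SOX2, beside 8433 and 8522 in OKM+SOX1 and 6363 and 6186 in OKM+GMNN.

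Some fibroblast genes fell in OKM+SOX3. Of 24 measured, with a median difference of -0.44 once lone-array values were left out, 1 rose and 6 fell with all values, 0 rose and 6 fell with lone-array values left out, 0 and 2 without OKM+SOX2 array 1, and 0 and 0 in the 8-array fit. The shares of all genes that fell were 2.74%, 2.37%, 0.416% and 0.318% in these fits. The rise was Twist2, a mesenchymal transcription factor, which read 2097 and 2026 in OKM+SOX3 and 71.4 and 1478 in OKM+SOX2, where array 1 was dim alone. Pdgfrb, the receptor for platelet-derived growth factor, read 3134 and 2759 in OKM+SOX3 and 5231 and 4991 in OKM+SOX2, a difference of -0.79 ± 0.139 (49-array adjusted p = 0.00197, without OKM+SOX2 array 1 0.0302, 8-array 0.0609). Lum, the matrix proteoglycan lumican, read 2745 and 3270.1 in OKM+SOX3 and 273 and 6580.5 in OKM+SOX2, and its difference turned from 1.09 with all values to -1.13 with the lone value left out (49-array adjusted p = 0.00902, 8-array 0.055). Fap (-0.79), Cdh2 (-0.84), Col3a1 (-0.74) and Vim (-0.48) were the other falls in common, while Col1a2 (-0.29) and Dcn, given above, did not pass.

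**Figure D5:**
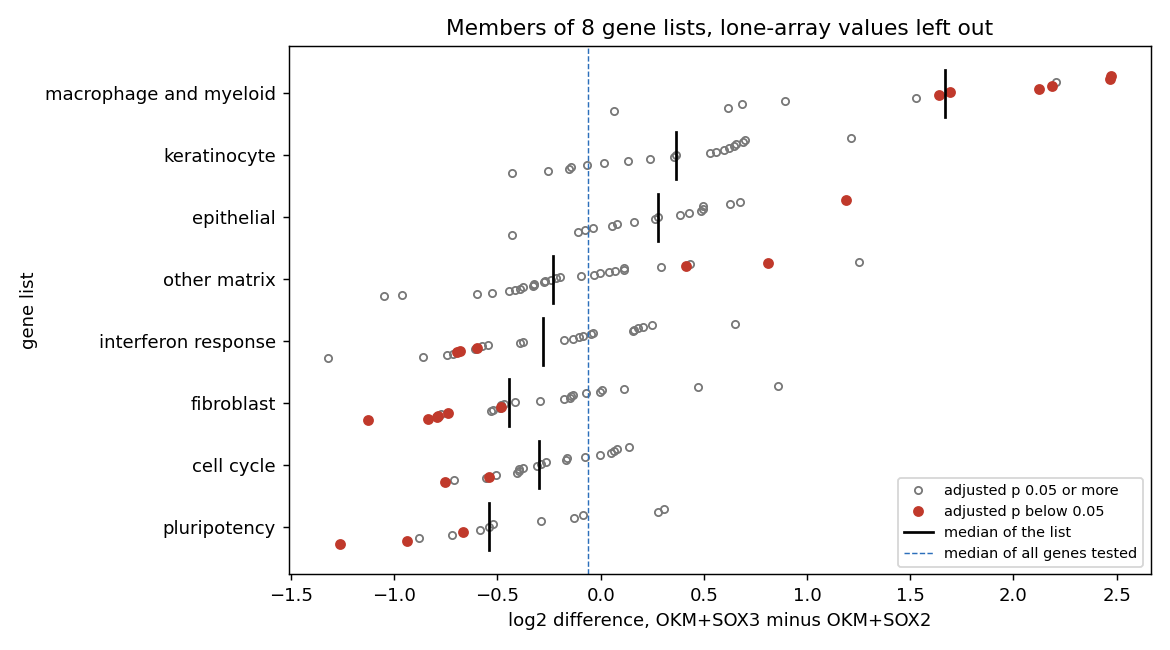
Log2 difference, OKM+SOX3 minus OKM+SOX2 (x axis), of the measured members of 8 gene lists (y axis), with lone-array values left out; filled points have a 49-array adjusted p below 0.05, black bars are list medians and the dashed line is the median of all genes. The macrophage list has its median at 1.67 and the pluripotency list at -0.54.

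Proliferation genes gave few calls. Of 20 measured cell cycle genes, 1 rose and 3 fell with all values, beside 3.34% and 2.74% of all genes, 0 and 2 with lone-array values left out and 0 and 0 in the 8-array fit. Plk1, a mitotic kinase, read 821 and 988 in OKM+SOX3 and 1871 and 1268 in OKM+SOX2, a difference of -0.75, and Bub1, a spindle checkpoint kinase, differed by -0.54. Outside that list, the core of 46 held the falls of Cdkn3, a phosphatase acting on cyclin-dependent kinases, of Hells, a chromatin remodeller of dividing cells, and of Mis18a, a centromere protein. Cdkn3 read 186 and 137 in OKM+SOX3 and 348 and 354 in OKM+SOX2, a difference of -1.0 ± 0.175 (49-array adjusted p = 0.00105, 8-array 0.0999). Hells differed by -0.88 and Mis18a by -0.77, and neither passed in the 8-array fit (0.0723 and 0.0999).

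Of 24 measured interferon response genes, 0 rose and 3 fell: Irf7 (-0.69), Psmb8 (-0.68) and Gbp2 (-0.60), none of which passed in the 8-array fit (0.0836, 0.128 and 0.157). Of all genes, 2.74% fell. Isg15, a ubiquitin-like protein induced by interferon, read 671 and 1149.5 in OKM+SOX3 and 2836 and 1776 in OKM+SOX2, with a 49-array adjusted p of 0.152 and an 8-array adjusted p of 0.0388. Of 16 measured glycolysis and hypoxia genes, 4 rose with all values, 2 with lone-array values left out (Ndrg1 and Egln3) and 1, Ndrg1, in the 8-array fit. The shares of all genes that rose were 3.34%, 1.83% and 0.513% in these fits. The hexokinase gene Hk2 was among the 4, at 3881 and 3300.5 in OKM+SOX3 and 139 and 3152 in OKM+SOX2, and did not pass with the lone dim value left out (49-array adjusted p = 0.882). Of 15 measured genes of p53 and senescence, 2 rose and 1 fell with all values, beside 3.34% and 2.74% of all genes. In the 8-array fit 0 rose and 0 fell. Cdkn1a, the p53-induced cell cycle inhibitor, read 42066 and 42066 in OKM+SOX3 and 14554 and 34995 in OKM+SOX2, where OKM+SOX2 array 1 alone was low. Gadd45a, a stress-induced gene, read 1567 and 1550.1 in OKM+SOX3 and 934 and 911 in OKM+SOX2, a difference of 0.74 ± 0.176 (49-array adjusted p = 0.0115, 8-array 0.0999).

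Among matrix and signalling genes, a few rose. Tnc, the matrix glycoprotein tenascin-C, read 6264 and 5986 in OKM+SOX3 and 3661 and 3300.5 in OKM+SOX2, with 2762 and 2498 in OKM+SOX1 and 3276 and 3256 in OKM+GMNN. It was 1 of 2 rises among 28 measured matrix genes, beside 3.34% of all genes, and differed by 0.81 ± 0.203 (49-array adjusted p = 0.0155, 8-array 0.044). The other was the lysyl oxidase gene Loxl2 (0.41), at the brighter of its 2 probes. Grem1, a secreted antagonist of bone morphogenetic proteins, read 1583 and 1649.7 in OKM+SOX3 and 616 and 919 in OKM+SOX2, a difference of 1.07 ± 0.186 (49-array adjusted p = 0.00095, 8-array 0.0412). Col2a1, the cartilage collagen, read 893 and 779.8 in OKM+SOX3 and 464 and 494 in OKM+SOX2, a difference of 0.76 (49-array adjusted p = 0.00231, 8-array 0.119), and both OKM+SOX3 arrays lay above all 6 others. Wnt7a, a Wnt ligand, read 254 and 205 in OKM+SOX3 and 63.8 and 101 in OKM+SOX2, a difference of 1.21 (49-array adjusted p = 0.00027, 8-array 0.0356), and OKM+GMNN was about as bright, at 165 and 212.

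Lists for other cell types and programs gave few or no calls with lone-array values left out. In the 49-array fit, 0 genes were called among 5 of primed epiblast, 6 of neural crest, glia and melanocyte, 12 of mesendoderm, 12 of smooth muscle, 7 of skeletal and heart muscle, 8 of adipocytes, 10 of endothelium and 15 of cholesterol synthesis. Of 13 neural progenitor and ectoderm genes 0 rose and 2 fell, Vim and Cdh2, which the fibroblast list also holds, and of 11 neuronal genes 0 rose and 1 fell. Of all genes, 1.83% rose and 2.37% fell. With all values 1 neural progenitor gene rose: Hes1, a Notch target and transcriptional repressor, at 723 and 638 in OKM+SOX3 and 73.1 and 538 in OKM+SOX2 (49-array adjusted p = 0.0466, 0.0532 with lone-array values left out and 0.892 without OKM+SOX2 array 1). None of these genes passed in the 8-array fit. Among 11 ribosomal protein genes, a list without Rps7, 0 were called, with a median of -0.37.

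The rule for the largest rises, applied to all values, named 15 genes of which 14 were dim on OKM+SOX2 array 1 alone. Besides Clec10a, these were Cd68, Hadh, Pcolce, Tmem43, Ppp2r1a, Bag6, Msln, Aamdc, Ndufa9, Pop5, Eif6, Hspe1, Alas1 and Amotl2. Without OKM+SOX2 array 1, 1 of the 15, Clec10a, passed, and 4 passed with lone-array values left out. Pcolce, an enhancer of procollagen processing related to Pcolce2, read 16670 and 19586 in OKM+SOX3 and 121 and 13232 in OKM+SOX2, and its difference was 3.67 with all values and 0.45 with the lone value left out. Among the 15 largest falls by the same rule, Zswim1 was bright on OKM+SOX2 array 1 alone, at 816 and 729.9 in OKM+SOX3 and 6809.7 and 897 in OKM+SOX2.

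The difference from OKM+SOX1 does not use OKM+SOX2 array 1, but the spread per gene in both fits does. Leaving out lone-array values moved the calls from 965 to 1039 in the 49-array fit and from 43 to 358 in the 8-array fit. In the 49-array fit 965 of 11304 genes (8.54%) passed, 367 higher (3.25%) and 598 lower (5.29%) in OKM+SOX3, and the 8-array fit with lone-array values left out passed 358 (3.17%). Besides Rhox9 and 9530053A07Rik, the detoxifying enzyme gene Gstp1, which has a close paralogue that its probe may also read, was among the largest rises, at 15909 and 12789 in OKM+SOX3 and 2693 and 3462 in OKM+SOX1, a difference of 2.21 ± 0.395 (49-array adjusted p = 0.000656, 8-array 0.000108). Against OKM+SOX2, at 5595 and 6432, it differed by 1.25 (49-array adjusted p = 0.0551, 8-array 0.00493). Msc and Pcolce2 were among the largest falls in this comparison too, with differences of -1.81 and -1.63.

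Against OKM+GMNN, 1335 genes (11.8%) passed in the 49-array fit, 611 higher (5.41%) and 724 lower (6.4%), and 1119 (9.9%) passed in the 8-array fit with lone-array values left out. Of the 19 measured keratinocyte genes 0 rose and 10 fell, among them Krt14, at 21241 and 20607 in OKM+SOX3 and 44968 and 45493 in OKM+GMNN (difference -1.11, 49-array adjusted p = 0.00649). Of 24 interferon genes 6 rose and 0 fell, among them Bst2, at 28746 and 30990 in OKM+SOX3 and 15909 and 15818 in OKM+GMNN (difference 0.91, 49-array adjusted p = 0.000854). Upp1, the uridine phosphorylase of nucleoside breakdown, read 3842 and 3056 in OKM+SOX3 and 157 and 219 in OKM+GMNN, a difference of 3.99 ± 0.257 (49-array adjusted p = 5.7e-09, 8-array 3.84e-07). In OKM+SOX2 it read 1325 and 1284 and differed by 1.37 (49-array adjusted p = 0.00459, 8-array 0.00944); its dimmer probe differed by 0.33.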

How the data were processed

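Arrays were grouped by the treatment named in the labels. The values the authors deposited are linear intensities. The scanner software and the normalization behind them were not stated in these sources; on the 8 arrays of OKM with SOX3, SOX2, SOX1 or GMNN the sorted values nearly coincide, as after quantile normalization.

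Of 19426 probes, 15539 carried 1 gene symbol (platform annotation, updated through RefSeq) and 3887 none. For 842 genes with several probes, the brightest probe on average across these 8 arrays was used. From the deposited intensity, log2(intensity + 32) was computed, a scale that understates changes of dim genes. Group means were estimated from all 49 arrays in limma 3.58.1 (R 4.3.3), with a trend of variance on intensity, two-sided tests and Benjamini-Hochberg adjustment over 11304 genes. Tested on simulated arrays with the spread of these 8, the 49-array fit made more false calls than its threshold allows and the 8-array fit did not, so both are printed. The mean number of false calls was 58.2 and 5. The simulated arrays held fewer changed genes than the 687 called here, so these numbers give no share of the 687 that is false. That spread was taken with lone-array values left out, and the simulated arrays had no such values. The step of leaving them out, used for the 8-array p-values, was therefore not tested. Leaving out lone-array values was chosen after seeing the data; a missing value was dropped from that gene's fit. Array numbers in the titles were not used as pairs: deviations of same-numbered arrays correlated at -0.13 to 0.08. Such correlations cannot exclude a small shared effect.

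Named genes were the 15 largest rises and falls with an adjusted p below 0.05, groups that do not overlap and a brighter mean above the median gene, applied to all values and again with lone-array values left out, the 6 largest each way against OKM+SOX1 and OKM+GMNN, the factor genes, up to 4 called and 2 other members of each gene list, and the genes that passed in every fit without 1 array. The groups, lists and rules were chosen with earlier results of these data known.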

Additional observations from a re-analysis of the deposited data

How the results depend on the processing

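The count of 687 genes depends on how the spread is estimated and on single arrays. With the 8 arrays alone in the fit and all values kept, limma called 27 genes against OKM+SOX2, 21 higher and 6 lower, all 27 at least 2-fold, 43 against OKM+SOX1 and 416 against OKM+GMNN. With only the 4 arrays compared, it called 1 gene against OKM+SOX2, which was higher and at least 2-fold, and 0 lower (1039 genes had an unadjusted p below 0.05), 139 against OKM+SOX1 and 2317 against OKM+GMNN. With the array number as a replicate block in the 8-array fit, it called 11 against OKM+SOX2, 9 higher and 2 lower, 11 of at least 2-fold. It called 0 against OKM+SOX1 (2200 had an unadjusted p below 0.05) and 110 against OKM+GMNN. Whether the numbers pair the arrays was not given.

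Leaving out 1 array at a time gave 109 to 1419 calls against OKM+SOX2, 62 to 779 higher and 47 to 640 lower, with 50 to 772 of at least 2-fold. The lowest count, 109, came without OKM+SOX2 array 1 and the highest, 1419, without OKM+SOX2 array 2; without OKM+SOX3 array 1 there were 139 and without OKM+SOX3 array 2 there were 217. The range was 361 to 686 against OKM+SOX1 and 436 to 753 against OKM+GMNN. The lone array of a group is then assumed to vary like the other groups.

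Leaving out lone-array values over 2 log2 units gave 207 higher genes and 127 of at least 2-fold, and with the 8-array fit 94 genes, 58 higher and 36 lower, 85 of at least 2-fold, and 358 against OKM+SOX1. At over 1 log2 unit 414 genes passed, 167 higher and 97 of at least 2-fold; at over 3 log2 units 244 were higher and 166 were at least 2-fold. The other pseudocounts, normalization over 49 arrays, leaving out the dimmest genes and averaging probes moved none of the counts by over 1.5 times. Among uncalled genes, leaving out 1 array gave -0.277 to 0.02 for Klf4 and -0.24 to 0.241 for Sox3, and the larger pseudocount turned the sign of Sox3 (-0.004). The cause of these changes was not tested. With 2 arrays a condition, differences smaller than the called ones may be missed.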

Other observations

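Of 4 further genes, H2-Aa and Ccdc3 passed in the 8-array fit with lone-array values left out, and Ahsg and Stmn2 in the 49-array fit alone. H2-Aa, a class II major histocompatibility chain of antigen-presenting cells, read 492 and 535 in OKM+SOX3 and 144 and 220.1 in OKM+SOX2, a difference of 1.37 ± 0.325 (49-array adjusted p = 0.0107, 8-array 0.0237, without OKM+SOX2 array 1 0.24). Ccdc3, a secreted protein, read 1662 and 1809 in OKM+SOX3 and 629 and 665 in OKM+SOX2, a difference of 1.38 (49-array adjusted p = 0.0837, 8-array 0.00448). Ahsg, the serum protein fetuin, read 1519 and 1804 in OKM+SOX3 and 670.5 and 1022 in OKM+SOX2, a difference of 0.97, and passed in the 49-array fit (0.0058) but not in the 8-array fit (0.0771). Stmn2, a microtubule regulator of neurons, was lower, at 1439 and 1307 in OKM+SOX3 and 3134 and 2313 in OKM+SOX2 (difference -0.96, 49-array adjusted p = 0.00958, 8-array 0.0581). These genes were singled out after their values were seen.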
